A study of Arabidopsis thaliana with 4 samples.

Results

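The photosynthesis genes of the chloroplast genome were compared between seeds of ddcc mutant and wild-type Arabidopsis thaliana. They were chosen by locus code as the psa, psb, pet, atp, ndh and rbcL genes, and they make up 45 of the 27416 loci in the deposited tables. Both genotypes were in the Col-0 background, grown in a greenhouse, and whole seeds holding post-mature green embryos were taken, with 2 biological replicates of each genotype. The name ddcc is known to stand for a quadruple mutant, with lesions in 4 genes for DNA methyltransferases (DRM1, DRM2, CMT2, CMT3) that are intact in the wild type. Total RNA was treated with DNase and amplified before library construction, and the labels name no poly(A) selection. For wild-type replicate 2 the labels disagree, with ddcc in the source name and wild type in the other fields, and the column headers of both wild-type tables name replicate 2 although their values differ. Each was kept as its title says.

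The chloroplast genome is a small circular chromosome inherited from a cyanobacterial ancestor. It encodes the core subunits of the photosynthetic complexes, and the nucleus encodes the remaining subunits of the same complexes. Most of its genes are transcribed in groups, like bacterial operons, by a plastid-encoded bacterial-type RNA polymerase and by nuclear-encoded phage-type polymerases. The long transcripts are then cut, spliced and stabilised by RNA-binding proteins from the nucleus. Green embryos of Arabidopsis hold photosynthetically active chloroplasts, which lose their chlorophyll as the seed matures and dries.

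The deposited values are normalised read counts, not divided by gene length. Whole reads recovered from them totalled 1122934 and 1166635 for ddcc replicates 1 and 2, and 3416071 and 1292023 for wild-type replicates 1 and 2. DRM2 stood at 4.85 and 8.33 in ddcc against 39.3 and 39.6 in wild type, or -2.36 ± 0.39 on the log2 scale (SE; limma adjusted p = 0.00347). DRM1 was listed at 0 in all 4 libraries, and CMT3 and CMT2 had at most 8 reads in any library, so only DRM2 checked the labels. All 8 seed storage and oil body genes used as seed markers were expressed, from 417 upwards in every library, and none was called different between the genotypes. The most abundant, PAP85, was at 23913 and 30559 in ddcc against 32840 and 36253 (limma adjusted p = 0.643). CRU2 was at 2421 and 2089 against 4861 and 3577 (limma adjusted p = 0.0557). SESA2, the only 1 of the 8 with a log2 fold change above 0, was at 3947 and 5445 against 3181 and 1606 (limma adjusted p = 0.0677). At an unadjusted p under 0.05 stood 3 of the 8, against 3348 of all 15780 tested genes.

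The files and the reference do not pair the plastid locus codes with gene symbols, so symbols and complexes follow the standard nomenclature of the codes. For 7 plastid loci, 2 of them photosynthesis genes, notes on related nuclear genes gave a sequence match, and all 7 matched the symbol used. Positions and sequences are those of the chloroplast chromosome in RefSeq's TAIR10.1, whereas the processing notes name TAIR10. The chromosome is 154478 bases long and holds the same 26264 bases in 2 inverted copies. Both copies of ndhB, an NDH subunit gene, lie in this repeat, at 94941 to 97164 and at 141485 to 143708, and their 2224 bases differ at 0 positions. Both were listed at 0 in all libraries, so ndhB was not measured and 43 genes could be tested. Of the 88 plastid loci 14 were listed at 0 in all libraries, and all 14 bear names of genes that lie wholly or partly in the repeat. ndhF, whose end reaches into the repeat, had signal in all libraries.

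Several sequences show what a short read can and cannot assign. The first 60 bases of the ndhB copies, with the start codon in capitals, are the same, so that a read from one matches the other.
ndhB copy 1, ChrC:97105-97164, minus strand: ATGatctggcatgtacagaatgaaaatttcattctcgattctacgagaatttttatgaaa
ndhB copy 2, ChrC:141485-141544, plus strand: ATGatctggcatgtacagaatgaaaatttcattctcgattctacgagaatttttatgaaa
The end of psbD and the start of psbC share 53 bases, shown with the psbC start codon in capitals, and atpB and atpE share the 4 bases in capitals, which hold the start codon of atpE and the stop codon of atpB. Reads over these bases belong to both genes, and ndhF likewise overlaps ycf1.
psbD-psbC overlap, ChrC:33720-33772, plus strand: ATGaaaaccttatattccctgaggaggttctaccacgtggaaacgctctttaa
atpB-atpE junction, ChrC:52648-52675, minus strand: taaattgaagaaATGAccttaaatcttt
The coding sequences of petL, the gene with the fewest reads, and psbM, the only gene with a log2 fold change below 0 as deposited, are shown whole with their start codons in capitals.
petL, ChrC:65712-65807, plus strand: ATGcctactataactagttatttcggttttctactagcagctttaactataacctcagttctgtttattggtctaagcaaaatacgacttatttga
psbM, ChrC:28707-28811, minus strand: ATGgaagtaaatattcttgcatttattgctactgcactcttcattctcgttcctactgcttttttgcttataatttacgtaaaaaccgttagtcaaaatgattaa

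Plastid photosynthesis transcripts took up a larger part of the ddcc libraries. Their summed signal made up 1.91% and 2.00% of all signal in ddcc against 0.937% and 0.898% in wild type, a 2.13-fold ratio of the means. The groups did not overlap, and the exact two-sided permutation p was 0.333, the smallest that 2 against 2 libraries can give. The deposited column totals were lower in ddcc. On the deposited scale, used for the fold changes below, the summed signal of these genes was 1.66-fold that of wild type. In recovered reads, 21410 and 23367 reads in ddcc gave 1.91% (95% Wilson interval 1.88% to 1.93%) and 2.00% (1.98% to 2.03%). The wild type had 31985 and 11598 reads, which gave 0.936% (0.926% to 0.947%) and 0.898% (0.882% to 0.914%). These intervals cover counting error only, without the spread between seeds. The wild-type library with 3416071 reads and the one with 1292023 differed in depth but had shares close to each other.

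Gene by gene, 17 of the 43 tested genes rose in ddcc and 0 fell at an adjusted p under 0.05 (limma). Over all 15780 genes tested, 3.03% were called higher and 3.45% lower. An unadjusted p under 0.05 was reached by 28 genes, all higher in ddcc, against 10.1% of all genes higher. The median log2 fold change of the 43 was 0.77, against 0.02 for all tested genes, and 42 of 43 lay above 0, as did 51.1% of all genes. Both ddcc libraries lay above both wild-type libraries for 38 of the 43, and for 25.7% of all genes. With voom on the recovered reads, 17 of the 43 were likewise called higher. However, limma without a trend in the variance called 0 higher (0.203% of all genes), and without the filter on mean level 4 (0.967%). Fold changes are on the scale of log2 of the value plus 1.56, which understates changes of genes with few reads.

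The count also depended on the libraries used. Without ddcc replicate 1 or without ddcc replicate 2, limma called 0 of the 43, and it called 1 gene in all in each case (0.00639% and 0.00637% of genes higher). At an unadjusted p under 0.05 stood 19 and 11 of the 43, all higher, against 5.03% and 4.99% of all genes. Without wild-type replicate 2, the library with the mixed labels, 5 were called (1.12% of all genes), and without wild-type replicate 1, 12 were called (1.77%). In these fits the lone library of a genotype is assumed to vary like the other genotype. The median stayed above 0 in each, between 0.51 and 0.94. Within the genotypes, ddcc replicate 2 exceeded replicate 1 for 35 of the 43 (52% of all genes), by a median log2 ratio of 0.19. Wild-type replicate 1 exceeded replicate 2 for 36 of the 43 (54% of all genes), by a median log2 ratio of 0.32.

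The size of the difference also depended on the scaling between libraries. With libraries scaled to equal totals of all genes or of nuclear genes, 34 of the 43 were called higher, but then the median of all genes was itself 0.35 or 0.38. Calls over all genes were then 1289 higher (8.12%) and 217 lower, or 1439 higher (9.06%) and 207 lower, in place of 478 and 545. With quantile normalisation, which gave 585 (3.71%) and 438 calls in all, 25 of the 43 were called. Relative to the median of all genes, the median of the 43 was 0.75 as deposited, 0.78 under both kinds of total and 0.97 under quantile normalisation. In whole-seed RNA, more chloroplast-bearing cells, more chloroplasts per cell and more RNA per chloroplast cannot be told apart.

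**Figure D1:**
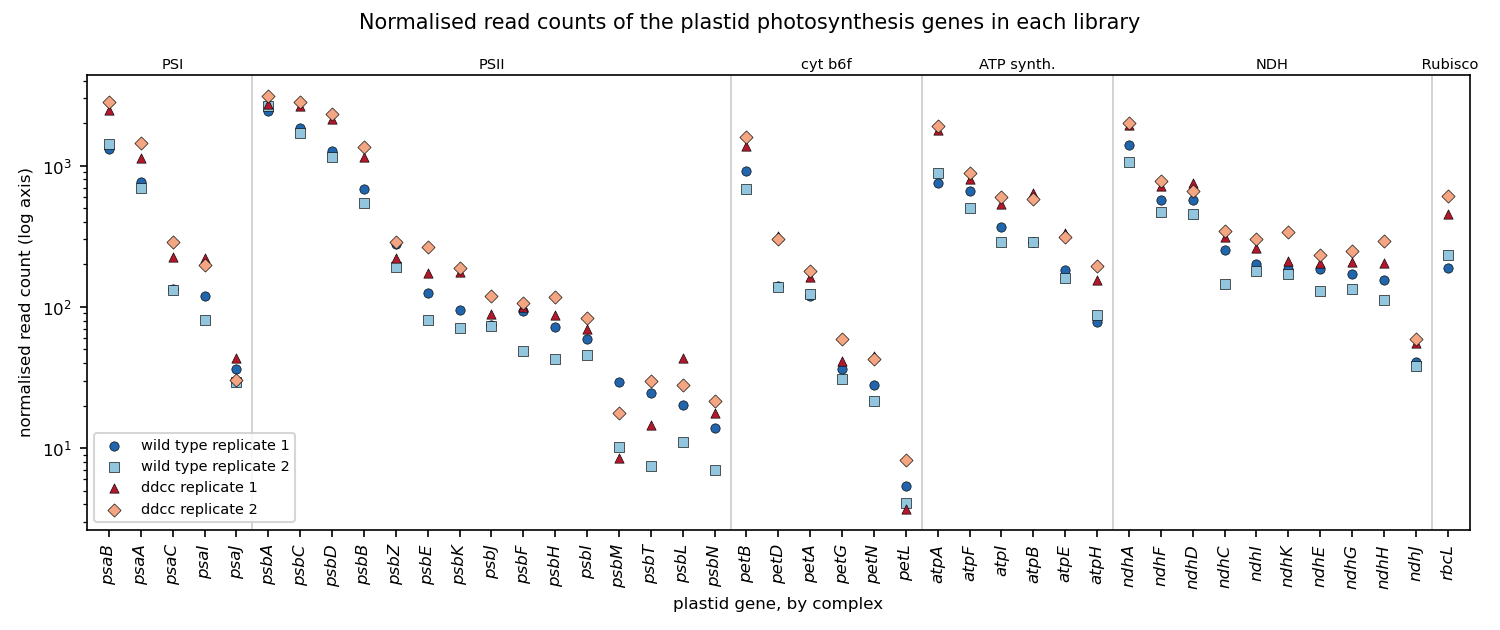
Normalised read counts on a log axis for the 43 measured plastid photosynthesis genes in each of the 4 libraries, grouped by complex and ordered by mean level. Triangles and diamonds are ddcc and circles and squares are wild type; both ddcc libraries lie above both wild-type libraries for 38 of the 43 genes.

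The large subunit of Rubisco, the enzyme that fixes carbon dioxide, showed the largest fold change among the 43 genes. rbcL (ATCG00490, positions 54958 to 56397, plus strand) stood at 455 and 609 in ddcc against 188 and 232 in wild type. The lowest ddcc library was well above the highest wild-type library. The log2 fold change was 1.33 (limma adjusted p = 0.00433, SE 0.23). Stretches of at least 95% identity and 100 bases covering 39.8% of rbcL also lie in the mitochondrial and nuclear genomes, so part of its reads is uncertain in origin. RBCS1A, the only one of 4 nuclear small subunit genes with enough signal to be tested, was at 69.7 and 71.3 in ddcc against 4.74 and 11.4 in wild type. It rose by 2.995 on the log2 scale (limma adjusted p = 0.000546, SE 0.39), although reads can be shared among the closely similar small subunit genes.

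ATP synthase, which turns the proton gradient across the thylakoid membrane into ATP, had 5 of its 6 plastid genes called higher and 0 lower, with a median log2 fold change of 0.99. Genes for the catalytic head and for the membrane ring both rose. atpA (ATCG00120, 9938 to 11461, minus strand), which encodes the alpha subunit of the head, stood at 1775 and 1901 in ddcc against 753 and 893 in wild type. Its log2 fold change was 1.16 (limma adjusted p = 0.00753, SE 0.22). atpB (ATCG00480, 52660 to 54156, minus strand), for the catalytic beta subunit, stood at 643 and 579 against 287 and 289, with a log2 fold change of 1.08 (limma adjusted p = 0.00812, SE 0.21). For both genes each ddcc library was about double either wild-type library or more, and the replicates lay close together.

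The gene of the ring subunit c, atpH (ATCG00140, 13262 to 13507, minus strand), stood at 156 and 193 in ddcc against 78.3 and 86.9 in wild type. Its log2 fold change was 1.06 (limma adjusted p = 0.0160, SE 0.24). atpE, for the epsilon subunit of the stalk, stood at 334 and 312 against 181 and 160, with 0.92 (limma adjusted p = 0.0212, SE 0.22). The groups did not overlap for either gene. atpI, for subunit a of the proton channel, stood at 532 and 603 against 369 and 287, with 0.80 (limma adjusted p = 0.0460, SE 0.22). The whole of atpI has a near-identical copy in the nuclear genome, so its reads are uncertain in origin. atpF, for a subunit of the outer stalk, was at 800 and 892 against 666 and 498, and at 0.55 (limma adjusted p = 0.174, SE 0.23) it did not pass.

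Photosystem I, which drives electrons from plastocyanin to ferredoxin, had 4 of its 5 plastid genes called higher and 0 lower, with a median of 0.93. The reaction-centre genes psaA and psaB lie next to each other on the minus strand. psaB (ATCG00340, 37375 to 39579) stood at 2489 and 2839 in ddcc against 1321 and 1422 in wild type, with a log2 fold change of 0.95 (limma adjusted p = 0.0241, SE 0.23). psaA (ATCG00350, 39605 to 41857) stood at 1137 and 1456 against 764 and 697, with 0.82 (limma adjusted p = 0.0447, SE 0.23). Neither gene's genotypes overlapped. psaC (ATCG01060, 117318 to 117563, minus strand), for the subunit that holds the terminal iron-sulphur clusters, stood at 226 and 286 against 134 and 131, with 0.93 (limma adjusted p = 0.0243, SE 0.23). psaI, for a small membrane subunit, stood at 221 and 197 against 119 and 81.2, with 1.07 (limma adjusted p = 0.0190, SE 0.25). In both, the lower ddcc library exceeded the higher wild-type library. The small subunit gene psaJ was at 43.4 and 30.5 against 36.5 and 29.3, so its genotypes overlapped.

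**Figure D2:**
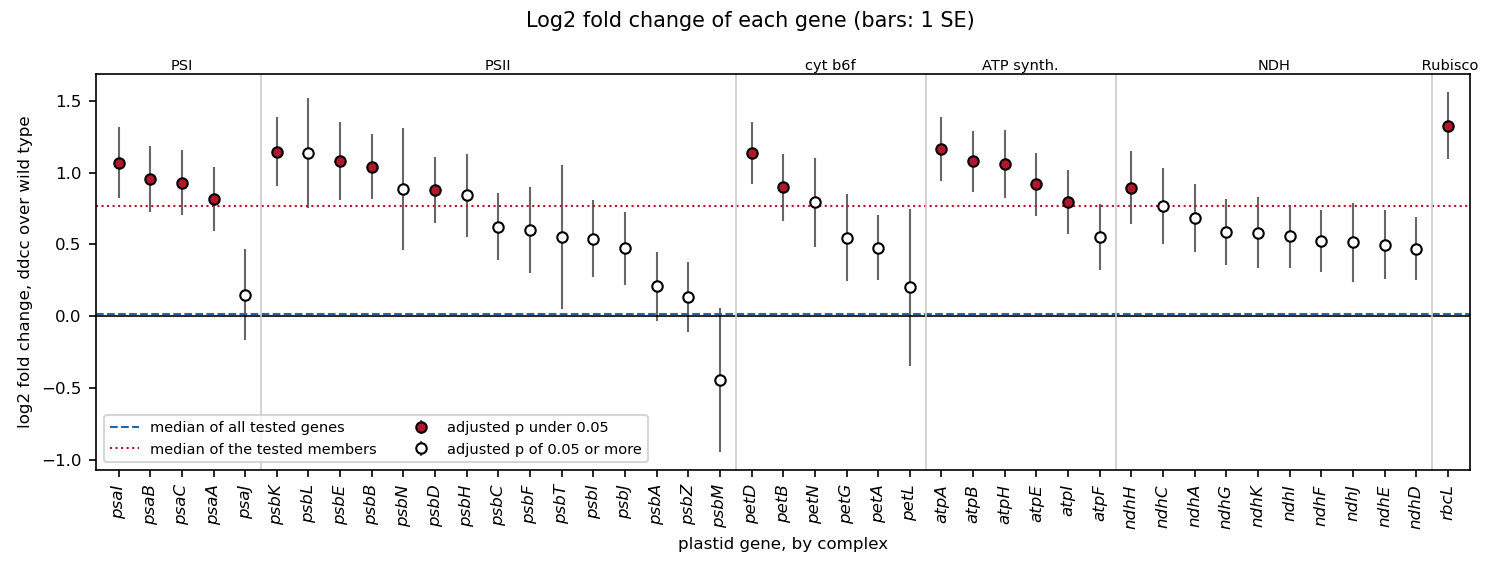
Log2 fold change of ddcc over wild type for each of the 43 genes by complex, with bars of 1 SE; filled points passed an adjusted p under 0.05. The dotted line is the median of the 43 genes (0.77) and the dashed line that of all tested genes (0.02). With libraries scaled to equal plastid totals the first becomes 0.04 and the second -0.65. The medians of photosystem II, cytochrome b6f and NDH then fall below 0. The 43 genes are the larger part of those totals, and the other tested plastid genes had a median of 0.87 as deposited. That scaling shows the 43 only relative to plastid genes as a whole.

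Photosystem II, which splits water, had 4 of its 15 plastid genes called higher and 0 lower. Its median was 0.62 as deposited and -0.11 with libraries scaled to equal plastid totals. The photosynthesis genes are the larger part of those totals, and the other tested plastid genes had a median of 0.87 as deposited. Values on that scale are thus relative to plastid genes as a whole. psbB (ATCG00680, 72371 to 73897, plus strand) encodes the inner antenna protein CP47. It stood at 1154 and 1360 in ddcc against 679 and 544 in wild type, with a log2 fold change of 1.04 (limma adjusted p = 0.0137, SE 0.23). psbD (ATCG00270, 32711 to 33772, plus strand), for the reaction-centre protein D2, stood at 2129 and 2337 against 1266 and 1160, with 0.88 (limma adjusted p = 0.0326, SE 0.23). Both genes were clear of overlap between the genotypes. psbE, for the alpha subunit of cytochrome b559, stood at 174 and 264 against 124 and 81.3, with 1.08 (limma adjusted p = 0.0298, SE 0.27). psbK, for a small core subunit, stood at 176 and 190 against 94.7 and 70.5, with 1.15 (limma adjusted p = 0.0121, SE 0.24). The ddcc replicates lay further apart for psbE than for psbK.

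The most abundant transcript of the 43, psbA (ATCG00020, 383 to 1444, minus strand), was not called as deposited. It encodes D1, the reaction-centre protein that is replaced most often under light. psbA stood at 2738 and 3127 in ddcc against 2438 and 2629 in wild type. The ddcc libraries were the higher ones by a small margin, with a log2 fold change of 0.21 (limma adjusted p = 0.679, SE 0.24). That value depended on the scaling, at 0.57 with plain totals, 0.60 with nuclear totals and -0.53 with plastid totals. With quantile normalisation psbA was called higher, at 0.77 (limma adjusted p = 0.0392). Copies of at least 95% identity outside the chloroplast cover 47.6% of psbA. psbC, for the inner antenna protein CP43, stood at 2639 and 2815 against 1852 and 1691, and at 0.62 (limma adjusted p = 0.138, SE 0.23) it did not pass although the genotypes did not overlap. psbM, for a small subunit at the contact of the photosystem II monomers, was at 8.53 and 17.8 against 29.4 and 10.1, and at -0.44 (limma adjusted p = 0.671, SE 0.50) it was the only one of the 43 below 0 as deposited. It rested on 22 reads in ddcc and 60 in wild type, and its log2 fold change was 0.03 without ddcc replicate 1 and 0.26 without wild-type replicate 1.

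Cytochrome b6f, which passes electrons between the photosystems, had 2 of its 6 plastid genes called higher and 0 lower, with a median of 0.67 as deposited and of -0.04 with equal plastid totals. Both called genes contain an intron, and both lie at the end of the psbB transcription unit. petD (ATCG00730, 76481 to 77672, plus strand), for subunit IV, stood at 316 and 301 in ddcc against 141 and 137 in wild type, with a log2 fold change of 1.14 (limma adjusted p = 0.00693, SE 0.22). petB (ATCG00720, 74841 to 76292, plus strand), for cytochrome b6, stood at 1376 and 1595 against 923 and 683, with 0.90 (limma adjusted p = 0.0342, SE 0.23). petD replicates were nearly equal within each genotype, and those of petB less so. petL had 10 reads in ddcc and 13 in wild type, and no difference in petL was detectable at this depth.

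The NDH complex, which returns electrons from ferredoxin to the plastoquinone pool, had 1 of its 10 tested genes called higher and 0 lower. Its median was 0.57 as deposited and -0.16 with equal plastid totals. All 10 genes had both ddcc libraries above both wild-type libraries, and their log2 fold changes lay between 0.47 and 0.89. The called gene, ndhH (ATCG01110, 122011 to 123192, minus strand), encodes a subunit of the arm in the stroma. It stood at 203 and 295 against 154 and 111, with 0.89 (limma adjusted p = 0.0499, SE 0.25), just inside the threshold. The most abundant, ndhA (ATCG01100, 119847 to 122009, minus strand), for a membrane subunit, stood at 1933 and 2001 against 1411 and 1064. At 0.68 (limma adjusted p = 0.106, SE 0.24) it did not pass.

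Shares within the 43 genes do not depend on the scaling between libraries. ATP synthase genes held 16.8% and 15.9% of the photosynthesis signal in ddcc against 13.7% and 14.5% in wild type. Photosystem I genes held 16.3% and 17.0% against 14.0% and 15.4%, and rbcL held 1.80% and 2.16% against 1.10% and 1.51%. Each of these shares was higher in both ddcc libraries than in either wild-type library. Photosystem II genes held 38.2% and 38.6% in ddcc against 41.9% and 43.2%, and psbA alone held 10.8% and 11.1% against 14.3% and 17.2%. Both shares were lower in both ddcc libraries. Cytochrome b6f genes held 7.69% and 7.73% against 7.37% and 6.53%, and NDH genes held 19.2% and 18.6% against 22.0% and 18.9%, with overlap only for NDH. The exact two-sided permutation p was 0.333, the smallest possible, for each share but NDH, where it was 0.667.

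The photosystem II difference of -4.09 percentage points became -0.92 once psbA was left out. The cytochrome b6f difference of 0.76 percentage points was 0.34 without wild-type replicate 2, 1.18 without wild-type replicate 1 and -0.16 without the genes that contain an intron, the last an alternative added after the data were seen. With libraries scaled to equal plastid totals, likewise added after the data were seen, limma called 0 of the 43 genes in either direction, and 1.47% of all genes higher. The photosynthesis genes are the larger part of those totals (53.2% to 57.9%). The other plastid genes summed to 20609 and 22895 in ddcc against 14940 and 11136 in wild type. Values near 0 on that scale are therefore relative to plastid genes as a whole. How far they follow from the weight of these genes in their own totals was not tested. At an unadjusted p under 0.05 stood psbM (-1.10), psbZ (-0.60), rbcL (0.60) and psbA (-0.53), while 42.1% of all genes did in either direction. On that scale 22 of the 43 lay above 0, and 42 of the 43 lay above the median of all genes, -0.65. The photosynthesis genes were 55.1% and 55.2% of all plastid signal in ddcc against 53.2% and 57.9% in wild type, so the genotypes overlapped.

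**Figure D3:**
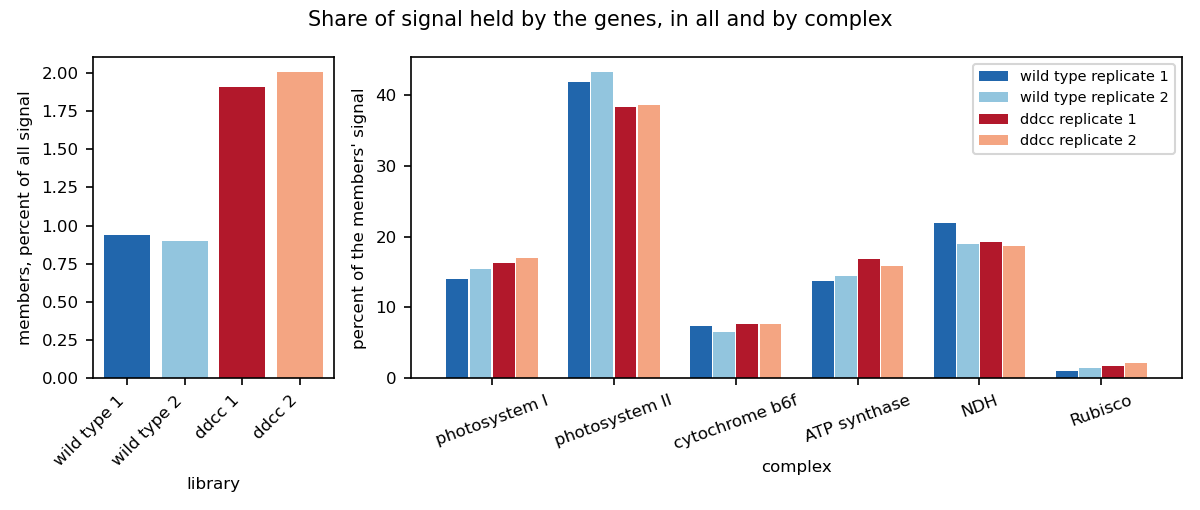
Left, percent of all signal held by the plastid photosynthesis genes in each library; right, percent of that signal held by each complex in each library, as bars from 0. The ddcc bars on the left (1.91% and 2.00%) are about double the wild-type bars (0.937% and 0.898%), while on the right the photosystem II bars are lower in ddcc (38.2% and 38.6% against 41.9% and 43.2%).

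Genes of one transcript need not give equal signal, since cutting and unequal stability follow transcription. The 11 known transcription units with several of these genes hold 37 of them in 26 neighbouring pairs. Signal per kilobase in these units is per kilobase of gene, with introns counted in the length. The ratio of the neighbours' signal per kilobase does not depend on the scaling between libraries. It did not overlap between the genotypes in 11 of the 26 pairs, against 48.9% of neighbouring tested loci in the whole table. Non-overlap was thus no more common here than among neighbours at large. The pairs that follow are described by their values, and no difference between them was tested. Both neighbours were called in 4 pairs. Within a unit, the log2 fold changes spanned 0.14 in psaA-psaB, 0.16 in atpB-atpE and up to 0.74 in psbD-psbC-psbZ.

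In the psbD unit the log2 fold change was 0.88 for psbD, 0.62 for psbC and 0.14 for psbZ, a gene for a photosystem II subunit. The per-kilobase ratio of psbC to psbD was 0.93 and 0.90 in ddcc against 1.09 and 1.09 in wild type. The ratio of psbZ to psbC was 0.64 and 0.77 in ddcc against 1.13 and 0.85 in wild type. Both ratios were lower in both ddcc libraries. The log2 fold change of psbZ turned negative with equal plastid totals (-0.60), without ddcc replicate 2 (-0.045) and without wild-type replicate 2 (-0.14). In the psbK-psbI unit the ratio of psbI to psbK, both small photosystem II subunit genes, was 0.66 and 0.74 in ddcc against 1.05 and 1.08 in wild type.

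In the atpI-atpH-atpF-atpA unit the intron-bearing atpF had the lowest log2 fold change, 0.55, between atpH at 1.06 and atpA at 1.16. The per-kilobase ratio of atpA to atpF was 1.85 and 1.78 in ddcc against 0.94 and 1.49 in wild type. The ratio of atpF to atpH was 0.99 and 0.89 in ddcc against 1.65 and 1.11 in wild type. The ratio of atpH to atpI was 0.89 and 0.98 in ddcc against 0.65 and 0.92 in wild type, and overlapped. In the first 2 pairs the genotypes stood apart, with the wild-type replicates further from each other than the ddcc replicates. In the atpB-atpE unit the ratio of atpE to atpB was 1.95 and 2.02 in ddcc against 2.36 and 2.08 in wild type, a narrow gap.

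The psbB unit carries genes of both photosystem II and cytochrome b6f. Its log2 fold changes were 1.04 for psbB, 0.55 for psbT, 0.84 for psbH, 0.90 for petB and 1.14 for petD, and psbT, which rested on 37 reads in ddcc and 49 in wild type, was at -0.22 without wild-type replicate 2. The ratio groups overlapped for all 4 neighbouring pairs of this unit. petD gave only 0.28 and 0.23 of the per-kilobase signal of petB in ddcc, and 0.19 and 0.24 in wild type. psbN lies on the opposite strand between psbT and psbH, and without a stated use of strand its 33 reads in ddcc and 30 in wild type cannot be told apart from reads of the psbB transcript.

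The longest unit, from ndhH to ndhD, holds psaC among 6 NDH genes. psaC had the highest log2 fold change of the unit, 0.93, between ndhE at 0.50 and ndhD at 0.47. The ratio of psaC to ndhE was 1.37 and 1.52 in ddcc against 0.90 and 1.25 in wild type, and that of ndhD to psaC was 0.55 and 0.38 in ddcc against 0.69 and 0.57 in wild type. Both pairs stood apart by genotype, the second narrowly. The ratios of the other 4 neighbouring pairs of the unit, all NDH genes, overlapped, as did both pairs of the ndhC-ndhK-ndhJ unit.

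In the psbE-psbF-psbL-psbJ unit, which encodes cytochrome b559 and small photosystem II subunits, the log2 fold changes were 1.08, 0.60, 1.14 and 0.47. The per-kilobase ratio of psbF to psbE was 1.21 and 0.85 in ddcc against 1.59 and 1.25 in wild type. The ratio of psbL to psbF was 0.44 and 0.27 in ddcc against 0.22 and 0.23 in wild type. The genotypes stood apart in both, with 60 psbL reads in ddcc and 45 in wild type. The ratio of psbJ to psbL was 1.95 and 4.03 in ddcc against 3.51 and 6.25 in wild type, and overlapped. In psaI-petA, whose genes lie 2296 bases apart, petA (for cytochrome f) had a log2 fold change of 0.48 against 1.07 for psaI. The petA to psaI ratio was 0.09 and 0.11 in ddcc against 0.12 and 0.18 in wild type. The petL-petG-psaJ unit had no called gene, and both of its ratios overlapped.

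**Figure D4:**
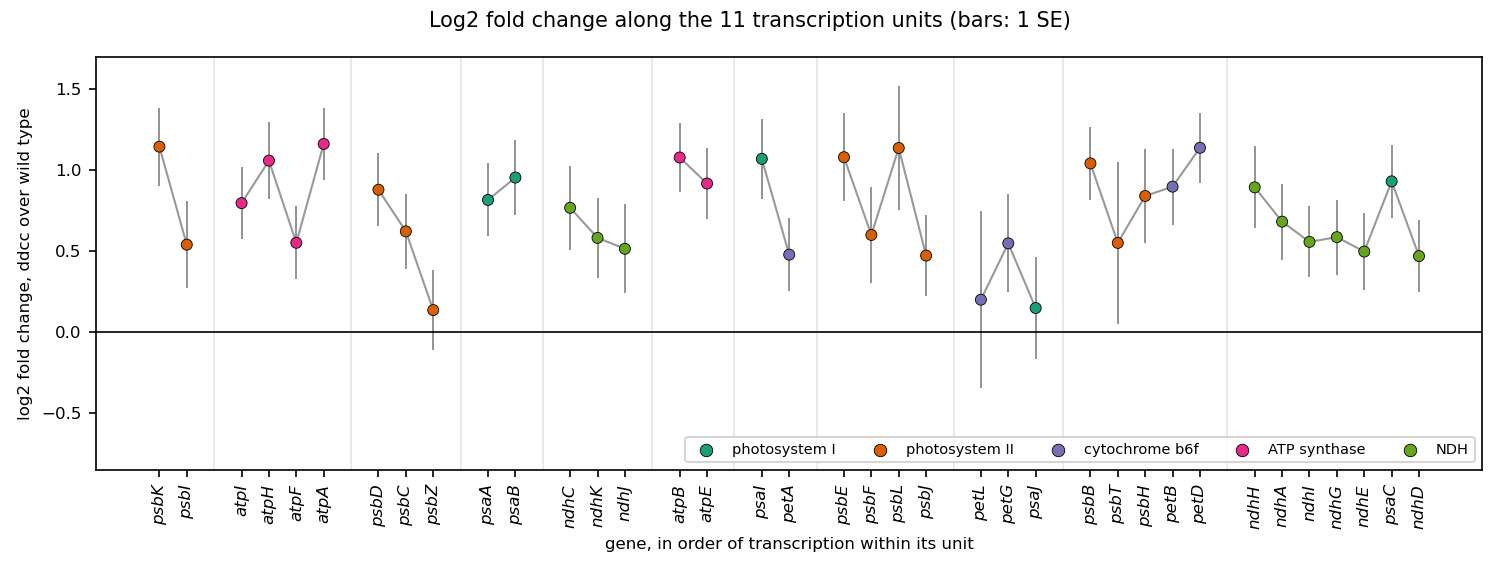
Log2 fold change of ddcc over wild type for the 37 genes of the 11 transcription units, in order of transcription, coloured by complex, with bars of 1 SE. The spread within a unit runs from 0.14 (psaA-psaB) to 0.74 (psbD-psbC-psbZ), and psaC stands above its NDH neighbours. With equal plastid totals, a scale relative to plastid genes as a whole, the median of the 43 genes is 0.04 and psbZ lies at -0.60.

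Longer genes had more reads behind their values. Of 14 genes shorter than 200 bases 2 were called, and of 29 longer genes 15. The median number of reads over the 4 libraries was 164 for the short genes and 1420 for the longer ones, and the median SE of the log2 fold change was 0.31 and 0.23. The median log2 fold changes of the short and longer genes were 0.55 and 0.82. The called genes had a median length of 1182 bases and a median GC content of 40.4%, and the genes not called 264 bases and 34.5%. Whether length or base composition has a part in which genes were called was not tested.

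Per kilobase of gene, psbA was the highest of the 43 in both genotypes, at 2761 ± 259 in ddcc and 2385 ± 127 in wild type (SD, n = 2). psbD ranked 2 in ddcc, at 2103 ± 139, and 4 in wild type, at 1142 ± 70.8, and petL was the lowest in both. The 4 tested genes with an intron, atpF, petB, petD and ndhA, had a median over all libraries of 652 per kilobase of gene. The 25 intronless genes of at least 200 bases had a median of 523. Counted per kilobase of coding sequence the intron-bearing genes had a median of 1383. Which part of their signal came from introns was not tested, because the values give 1 number per gene.

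Plastid genes outside photosynthesis were called higher as well. All 4 core genes of the plastid-encoded RNA polymerase rose, with a median log2 fold change of 1.01. Of these, rpoB stood at 547 and 496 in ddcc against 274 and 231 in wild type, with 1.05 (limma adjusted p = 0.0111, SE 0.22), and rpoA, at 1655 and 1693 against 952 and 706, with 1.03 (limma adjusted p = 0.0166, SE 0.23). Of 31 tested plastid genes outside photosynthesis, including the polymerase genes, 16 rose and 0 fell, with a median of 0.87. Over all tested genes 3.03% were called higher and 3.45% lower. The ribosomal protein gene rps2 stood at 459 and 488 against 248 and 196, with 1.10 (limma adjusted p = 0.00932, SE 0.22), and rpl16, the most abundant, at 4183 and 5577 against 3990 and 2266 (limma adjusted p = 0.207). Of 42 tested mitochondrial genes 1 rose and 0 fell, with a median of 0.36, so the calls were no more frequent than the 3.03% of all genes. However, 36 of the 42 had a log2 fold change above 0, against 51.1% of all genes. Both ddcc libraries lay above both wild-type libraries for 18 of the 42, against 25.7% of all genes. The gene that rose, ATMG00660, stood at 98.1 and 112 against 52.7 and 48.95 (limma adjusted p = 0.0254), and the most abundant, ATMG00090, at 1836 and 1691 against 2106 and 1360 (limma adjusted p = 0.929). All plastid genes held 3.46% and 3.63% of all signal in ddcc against 1.76% and 1.55% in wild type, and mitochondrial genes 0.549% and 0.451% against 0.320% and 0.339%.

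For the nuclear genes that transcribe and process plastid RNA, the calls are set beside 6.48% of all tested genes called in either direction. An unadjusted p under 0.05 in either direction was reached by 3348 of all 15780 tested genes, the background for such counts below. Of 6 sigma factor genes, which direct the plastid polymerase to promoters, 0 were called, with 1 at an unadjusted p under 0.05. SIG2 stood at 50.4 and 31.8 in ddcc against 73.2 and 36.6 in wild type, and the genotypes overlapped. SIGC was at 21.0 and 13.6 against 3.03 and 11.2 (limma adjusted p = 0.176). Of 2 phage-type polymerase genes limma called 0, with 0 at an unadjusted p under 0.05, and SCA3 was at 84.0 and 103 against 74.8 and 75.2, AT5G15700 at 55.5 and 58.0 against 63.0 and 85.2. Of 12 genes for proteins associated with the plastid polymerase 1 rose, PTAC7, at 11.8 and 9.76 against 2.30 and 0.093 (limma adjusted p = 0.0349), on 10, 8, 4 and 0 reads. The most abundant of them, PTAC6, was at 289 and 251 against 384 and 316, and its log2 fold change of -0.37 (limma adjusted p = 0.366, SE 0.22) did not pass.

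Of 13 tested genes for plastid RNA processing and stability, limma called 0, with 4 at an unadjusted p under 0.05, against 3348 of all 15780 genes. HCF173, known for its part in the translation of psbA, was the most abundant. It stood at 57.9 and 60.4 in ddcc against 170 and 84.4 in wild type, with a log2 fold change of -1.001 (limma adjusted p = 0.0669, SE 0.31). CSP41A, for a protein that binds plastid RNA, was at 5.88 and 4.90 against 1.12 and 0.048, on at most 5 reads in a library.

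Nuclear subunit genes of the same complexes had little signal. The 12 photosystem I genes summed to 17.8 and 16.9 in ddcc against 14.5 and 28.03 in wild type, and of the 3 that could be tested limma called 0, with 1 at an unadjusted p under 0.05. PSAD-2, for a subunit at the ferredoxin side, was at 8.28 and 8.47 against 4.26 and 10.1, and its paralogue PSAD-1 at 1.27 and 3.54 against 6.09 and 9.05 (limma adjusted p = 0.226). The 10 photosystem II genes summed to 79.9 and 65.8 against 83.9 and 82.0, and of 4 tested 0 were called, again with 1 at an unadjusted p under 0.05. PSBW, for a small subunit, was at 33.0 and 29.1 against 36.9 and 31.9 (limma adjusted p = 0.843). PSBP-1, for a protein of the oxygen-evolving complex, was at 6.88 and 1.41 against 15.5 and 13.3 (limma adjusted p = 0.0898). Of 4 ATP synthase genes 3 had an unadjusted p under 0.05, against 3348 of all 15780 tested genes. Of the same 4, 2 had a log2 fold change above 0, with values from -1.07 to 1.82. The most abundant, PDE334, for a subunit of the outer stalk, was at 54.5 and 68.7 against 37.1 and 38.2, with 0.68 (limma adjusted p = 0.175, SE 0.28). ATPC2, a gene for the gamma subunit, was the 1 gene of the list called, and fell, at 28.3 and 25.5 against 52.1 and 64.3, with -1.07 (limma adjusted p = 0.0442, SE 0.29). PETC, for the Rieske protein of cytochrome b6f, was at 21.2 and 18.2 against 15.0 and 13.3 (limma adjusted p = 0.556), and NdhL at 6.88 and 1.41 against 6.20 and 7.83 (limma adjusted p = 0.505).

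Markers of other tissues were compared beside the plastid signal. The 5 markers of leaf and silique wall photosynthesis summed to 23.9 and 33.5 in ddcc against 20.6 and 8.58 in wild type. None of the 3 that could be tested was called by limma. At an unadjusted p under 0.05 stood 1 of the 3, against 3348 of all 15780 tested genes. All 3 had a log2 fold change above 0, with a median of 1.12. RCA, for Rubisco activase, was at 9.60 and 14.4 against 7.47 and 6.68, with 0.63 (limma adjusted p = 0.472, SE 0.46). SBPASE, for an enzyme of the Calvin cycle, was at 9.50 and 10.8 against 5.66 and 1.60, with 1.29 (limma adjusted p = 0.189, SE 0.55). GAPB, of the same cycle, was at 3.67 and 7.12 against 4.06 and 0.16, with 1.12 (limma adjusted p = 0.375, SE 0.68). CA1, the carbonic anhydrase abundant in leaves, had at most 1 read in any library. PRK, also too low to be tested, had a lower mean in ddcc. It was at 0.023 and 1.17 against 2.89 and 0.11, on 0, 1, 5 and 0 reads. Among 3 seed coat markers BAN was listed at 0 in all libraries, MUM4 was at 7.33 and 15.4 against 12.2 and 5.69 (limma adjusted p = 0.792), and the list summed to 8.53 and 16.7 against 13.2 and 7.02. The endosperm gene EPR1 stood at 23673 and 32212 in ddcc against 13960 and 15731 in wild type, with a log2 fold change of 0.90 (limma adjusted p = 0.150, SE 0.35). The part of these tissues in the plastid signal was not tested.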

How the data were processed

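Per the labels' protocols, total RNA of whole seeds was treated with DNase and about 25 ng was amplified (Nugen Ovation) before library construction. Bowtie 0.12.7, edgeR 3.10.5 and TAIR10 were used, per the submitters' processing notes; the sources used here do not give settings, counting rules or use of strand. The deposited signal is a normalised read count per gene, set by the authors. Genes whose mean reached 1 unit (1.56, a millionth of the mean column total) were tested with limma 3.58.1 in R 4.3.3 on log2 of the value plus 1 unit, with a trended variance and Benjamini-Hochberg adjustment over all 15780 tested genes. Whole reads were recovered by inverting the library size equalisation (tolerance 0.01), for 100% of ddcc value pairs and 99.99% of wild-type pairs. They give depths and an alternative fit. The script was tested on simulated data. The genes and lists were chosen with earlier results of these data known. Named genes are every called member, psbA, rbcL, the highest and the lowest-p gene of each complex or list, and genes of a described unit. psbM, petL, psaJ, psbN, GAPB, CA1, PRK, SESA2 and BAN were added after their values were seen. Sequence copies were found with BLAST+ 2.17.0. With 2 libraries a genotype, limma's variance for a gene leans on the trend over all tested genes as well as on the spread between these samples. The limma p-values are therefore not a measure of replicate spread alone, and without that trend 0 of the 43 were called.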

Additional observations from a re-analysis of the deposited data

How the results depend on the processing

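Of 43 genes, 17 were called higher as deposited; the count was 4 without a filter (0.967% of all genes), 34 with equal totals of nuclear genes and 34 with plain totals, 0 for limma without a trend (19 at an unadjusted p under 0.05, against 10.2% of all genes higher), 0 with equal plastid totals, and 0 to 12 without 1 library. The other settings gave 15 to 25, voom 17, and the replicate block 16, of which 15 were among the 17. The replicate numbers did not pair the samples (r = -0.05 between same-numbered deviations). No gene was called lower in any setting. The median of 0.77 was 1.16 with nuclear totals, 1.13 with plain totals, 0.036 with plastid totals and 0.51 to 0.94 without 1 library. With nuclear, plain and plastid totals, the complex medians were 1.32, 1.29 and 0.20 for photosystem I, 1.02, 0.99 and -0.11 for photosystem II, 1.05, 1.02 and -0.035 for cytochrome b6f, 1.38, 1.35 and 0.26 for ATP synthase, 0.96, 0.93 and -0.16 for NDH, and 1.72, 1.69 and 0.60 for Rubisco. Quantile normalisation gave 1.24 for photosystem I and 1.18 for ATP synthase. Without 1 library they were 0.47 to 1.07 for photosystem II and 0.56 to 0.82 for cytochrome b6f. Over the 43 genes, 554 of the recomputed fold changes kept their direction and side of the threshold, 103 lost the call, 44 gained it and 29 reversed. With plastid totals the log2 fold changes were psbA -0.53, psbI -0.18, atpF -0.18, psbC -0.11, psbZ -0.60, ndhJ -0.199, ndhK -0.15, petA -0.25, psbJ -0.25, psbF -0.12, petL -0.37, petG -0.16, psaJ -0.56, psbT -0.11, ndhF -0.21, ndhD -0.27, ndhE -0.23, ndhG -0.14, ndhI -0.17 and ndhA -0.054; petL was at -0.057 with quantile normalisation. Without 1 library, psbM ranged from -1.15 to 0.26, psbZ from -0.14 to 0.41, petL from -0.25 to 0.65, psaJ from -0.095 to 0.39 and psbT from -0.22 to 1.32. The share of all signal differed by 1.04 percentage points, and by 1.10 of nuclear signal. The photosystem II share difference of -4.09 was -0.92 without psbA, -4.81 without intron-bearing genes and -0.73 without genes with copies elsewhere. That of ATP synthase, 2.23, was 1.595 and 3.25 in the first 2 cases, and that of cytochrome b6f, 0.76, was -0.16 without intron-bearing genes and 0.34 to 1.18 without 1 library. The plastid totals, intron and copy alternatives were added after the data were seen. The photosynthesis genes are the larger part of the plastid totals, and the other tested plastid genes had a median of 0.87 as deposited. Lost calls and reversals on that scale are therefore relative to plastid genes as a whole. Leaving out a library also leaves fewer samples. The cause of the changes between settings was not tested. Precision is limited for genes with few reads, such as petL with 23 in all.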
